A study of Mus musculus with 4 samples.

Results

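The duodenum of a mouse labelled as lacking Ip6k2 was compared with the duodenum of a wild-type (WT) mouse, with 1 microarray for each. These 2 arrays were chosen by the tissue and genotype in their sample titles, and they are 2 of the 4 arrays in the series, the other two being spinal cord from the same genotypes. In the knockout (KO) line, exon 6 of Ip6k2, which encodes part of the kinase domain, was deleted in every tissue. According to the labels, both mice were males of 20 weeks that had been kept on a standard chow, were moved to a purified diet for 1 week, and were then fasted for 48 h. RNA came from whole duodenum, with precautions against degradation by digestive juice, so mucosa, muscle, nerves and any attached tissue were measured together. There was 1 array per genotype, so no difference below has a replicate check and no p-value is given. In bulk RNA, fewer cells of a type and less RNA per cell cannot be told apart.

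IP6K2 is 1 of the kinases that add a phosphate to inositol hexakisphosphate (IP6) and so form the pyrophosphate IP7, which the PPIP5K enzymes turn into IP8. IP7 has been tied to phosphate balance, insulin secretion and the survival of neurons. The duodenum is the first part of the small intestine: its villi absorb sugars, peptides, fat and iron, its crypts hold stem and Paneth cells, Brunner glands in its submucosa secrete mucus, and enteric neurons in its wall drive movement and secretion. It joins the stomach and curves around the pancreas, whose tissue can be taken with it, and for that reason markers of both were followed.

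The WT duodenum array was much dimmer than the KO array. The 75th percentile of signal over all probes was 68.0 in WT and 323 in KO, while it was 905 and 971 on the WT and KO spinal cord arrays. Of 39429 probes, 51.6% were well above background on the WT duodenum array and 66.3% on the KO array, and no spot was saturated on either. RNA added to each sample as a spiked-in control was not dimmer in WT, with a mean log2 signal of 10.99 in WT and 10.24 in KO. Both arrays carried the pattern of male tissue, since Xist was not well above background on either, and the Y-linked Ddx3y and Eif2s3y were on both.

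A level below is the log2 of a gene's signal minus the array's 75th percentile of log2 signal, and a difference is the KO level minus the WT level, so that 1 is 2-fold. A negative difference means that the gene was lower in KO. This scaling did not level the arrays at every brightness. The 16816 genes detected on both arrays were split into 10 bins by brightness, and the median difference was -0.62 in the dimmest bin, 0.12 in the fourth and -0.52 in the brightest. Quantile normalization, which gives both arrays the same distribution, brought the brightest bin to 0.03 but left the dimmest at -0.59. Where a difference is followed by a second one in parentheses, the second is after quantile normalization. Other scalings were loess on brightness, median centring, quantile normalization over all 4 arrays, the deposited log2 values, and normexp, a model-based background correction that changes mainly dim probes. Probes printed 10 times on each array gave the spread between spots, from which a technical SD of the difference was taken for each gene. Its median was 0.09 and its range 0.07 to 0.41, and it covers spot noise only, not differences between mice.

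**Figure D1:**
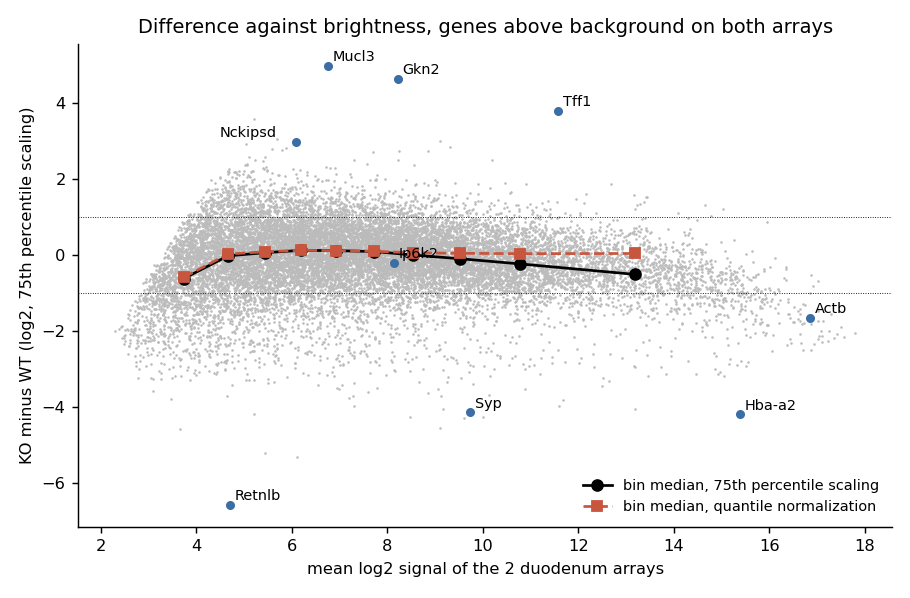
Each grey point is 1 gene well above background on both duodenum arrays, with the mean log2 signal of the 2 arrays on the x axis and the KO minus WT difference on the y axis (log2), and the dotted lines mark 2-fold. Black circles are medians of 10 brightness bins under 75th percentile scaling and red squares those after quantile normalization; the black line drops to -0.52 in the brightest bin, where the red line is at 0.03.

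Across all genes, 21435 were well above background on at least 1 of the 2 arrays. Of these, 1543 (7.2%) were at least 2-fold higher and 2552 (11.9%) at least 2-fold lower in KO. After quantile normalization the counts were 1773 higher (8.27%) and 2071 lower (9.66%). The share of higher genes among those past 2-fold was 37.7% under 75th percentile scaling, 46.1% after quantile normalization and 21.6% with normexp background correction, so the balance of higher and lower genes moved with the scaling. The gene groups below are read against these percentages. Their lists were drawn up with earlier results of these data known, so their counts are descriptions. Lower genes were most frequent at both ends of brightness: 588 of 1682 genes in the dimmest bin were at least 2-fold lower, as were 404 of 1682 in the brightest, against 152 of 1681 in the seventh. Genes with several probes gave a check within the arrays. Of 449 genes past 2-fold with 2 or more probes well above background on both arrays, all probes pointed the same way in 69.7%. The share was 61.8% among all 2911 genes with 2 or more such probes. Where the probes of a gene named below pointed both ways, the mean over its probes is given too. Normexp background correction, with its offset, weighed most on the higher genes. Of 1239 genes detected on both arrays and at least 2-fold higher, 337 stayed so with normexp, and of 2481 at least 2-fold lower, 1700 did.

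The targeted gene did not separate the 2 arrays. The Ip6k2 probe gave a signal of 139 in WT and 572 in KO, and its levels were 1.04 in WT and 0.83 in KO. The difference was -0.21 (-0.18) with a technical SD of 0.08, and it was 0.06 with normexp background correction, so it had no settled direction. In spinal cord the KO level of this probe was higher than the WT level by 1.45. The sources used here do not say whether the probe lies in exon 6, so its signal checks nothing about the genotype, and KO below means the array labelled KO. Nckipsd, whose gene is the protein-coding neighbour downstream of Ip6k2 and which encodes an adaptor that binds Nck, was among the largest increases. Its signal was 11.1 in WT and 412 in KO and its difference 2.97 (1.19 with normexp background correction), and in spinal cord it was also higher on the KO array, by 0.94. Prkar2a, the protein-coding neighbour on the other side, which encodes a regulatory subunit of protein kinase A, had a difference of 0.60.

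The other enzymes of inositol phosphate metabolism were mostly within 2-fold. Of 27 genes on the array, 25 were well above background on at least 1 duodenum array, 1 was at least 2-fold higher and 1 at least 2-fold lower in KO. The median difference was -0.11 (0.13), on opposite sides of 0 under the 2 scalings. Ip6k1, the paralogue that makes the same product, had a signal of 377 in WT and 2158 in KO and a difference of 0.27 (0.44). Ip6k3, the muscle paralogue, did not stand well above background on either array. The 2 IP8-forming kinases lay on opposite sides of 0. Ppip5k1 had levels of 0.01 in WT and 0.81 in KO, a difference of 0.80 (0.80), and Ppip5k2 had levels of 1.34 in WT and 0.64 in KO, a difference of -0.69 (-0.66). Neither reached 2-fold. Among the kinases that lead to IP6, the differences were 0.28 for Ipmk (-0.62 as the mean over 2 probes that pointed both ways), 0.47 for Ippk and -0.48 for Itpk1. The phosphatases that remove pyrophosphates had differences of -0.39 (Nudt3) and -0.11 (Nudt4), and Minpp1, which takes phosphates off IP6, had 0.20. Both genes past 2-fold were dim. Inpp1, an inositol polyphosphate phosphatase, had a signal of 7.31 in WT and 84.9 in KO and a difference of 1.29, which turned to -0.51 with normexp background correction. Itpkb, an IP3 kinase, had a signal of 10.4 in WT and 21.5 in KO and a difference of -1.20 (-1.16). Isyna1, which takes the first step of inositol synthesis from glucose, had a difference of -0.98 (-0.71), and Slc5a3, which carries inositol into cells, had -0.71 (-0.68).

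**Figure D2:**
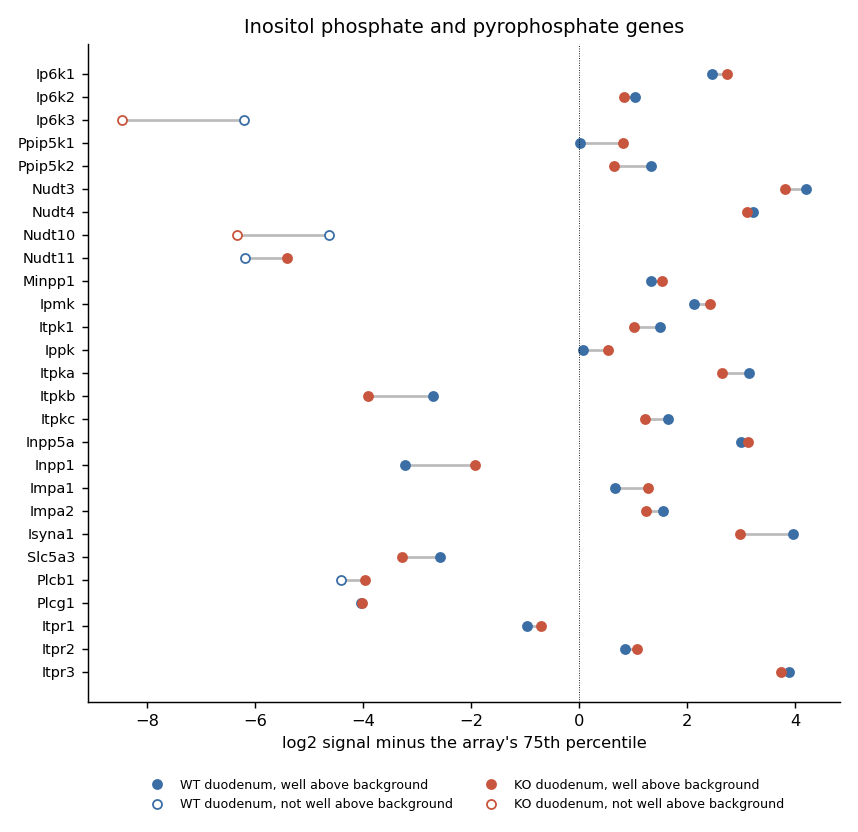
Levels of 27 inositol phosphate and pyrophosphate genes (log2 signal minus the array's 75th percentile) on the WT (blue) and KO (red) duodenum arrays, with open circles where a probe was not well above background. Ip6k2 stands at 1.04 in WT and 0.83 in KO, and Ppip5k1 and Ppip5k2 lie on opposite sides of their WT values.

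The largest changes are given for genes with a standard symbol that were detected on both arrays, whose probes pointed one way, and which stayed past 2-fold after quantile normalization. The 5 largest increases of this kind in KO were all on the list of genes of the gastric surface and glands. That list was drawn up with earlier results of these data known, so the overlap is a description and no test. Mucl3, a mucin-like protein, had a signal of 8.87 in WT and 1313 in KO. Its level went from -2.94 in WT to 2.02 in KO, a difference of 4.96 (technical SD 0.20), or 2.49 with normexp background correction. Gkn2, a gastrokine secreted by pit cells of the stomach, had a signal of 27.6 in WT and 3238 in KO and a difference of 4.63, or 3.72 with that correction. Tff1, the trefoil peptide of gastric pits, had a signal of 379.6 in WT and 24914 in KO, a difference of 3.79 (4.14), which was 4.24 with normexp. Anxa10, an annexin of gastric epithelium, had a signal of 4.96 in WT and 277 in KO and a difference of 3.56, which fell to 1.08 with normexp. Muc5ac, the surface mucin of the stomach, had a signal of 6.27 in WT and 291 in KO and a difference of 3.29. The WT signals of Mucl3, Anxa10 and Muc5ac were under 10 and so close to background, while those of Gkn2 and Tff1 were further above it.

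The other 7 of the 12 largest increases included genes of the pancreas. Ppy, the pancreatic polypeptide hormone, had a signal of 8.44 in WT and 276 in KO and a difference of 2.79. Cckar, the cholecystokinin receptor of pancreas and vagal nerves, had a signal of 54.6 in WT and 1700.2 in KO and a difference of 2.71 (2.80). Syt10, a synaptotagmin of regulated secretion, had a signal of 89.3 in WT and 3366 in KO and a difference of 2.99 (3.13). Nckipsd came next to it at 2.97. Nlrc4, an inflammasome sensor of bacterial proteins, had a signal of 5.52 in WT and 199 in KO and a difference of 2.92. Cubn, the receptor for vitamin B12 bound to intrinsic factor, had a signal of 37.5 in WT and 1167 in KO and a difference of 2.71 (2.75). Paip2b, a translational regulator, had a signal of 7.28 in WT and 193 in KO and a difference of 2.48. Quantile normalization was part of the choice of these genes. Under the other scalings 8 of the 12 stayed at least 2-fold higher, and Muc5ac, Nlrc4, Ppy and Paip2b did not. The WT signals of these 4 were between 5.52 and 8.44, and with normexp background correction their differences were 0.84, 0.37, 0.68 and 0.37. In 11 of the 12, a single probe was well above background on both arrays, so agreement between probes was not checked for them.

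**Figure D3:**
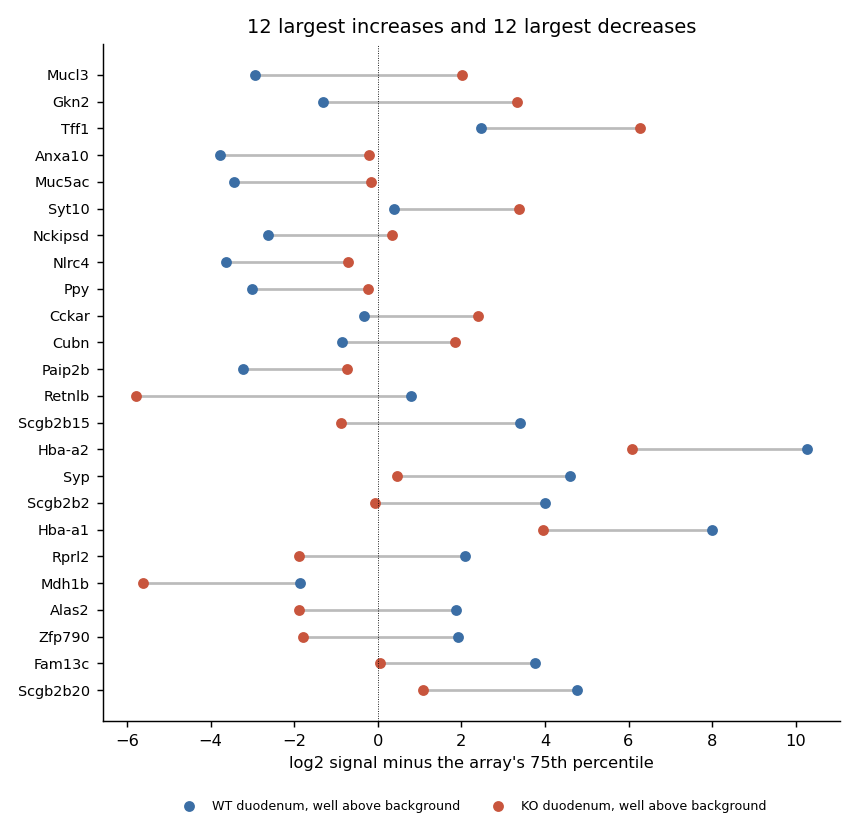
Levels (log2 signal minus the array's 75th percentile) of the 12 largest increases and 12 largest decreases on the WT (blue) and KO (red) duodenum arrays, 1 array each. Mucl3 went from -2.94 in WT to 2.02 in KO, and Retnlb from 0.79 to -5.78.

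The 12 largest decreases held a goblet cell gene, 3 red blood cell genes and 3 secretoglobins. Retnlb, an antibacterial resistin-like protein of goblet cells, had a signal of 117 in WT and 5.86 in KO and a difference of -6.57 (-6.38; technical SD 0.23), or -3.12 with normexp background correction. Hba-a2, an alpha globin, had a signal of 83828 in WT and 21815 in KO and a difference of -4.19 (-3.13). Its near-identical copy Hba-a1 had a signal of 17436 in WT and 5007 in KO and a difference of -4.05 (-3.45). Alas2, which starts heme synthesis in red cell precursors, had a signal of 251 in WT and 87.1 in KO and a difference of -3.77 (-3.72). The secretoglobins, small secreted proteins of glands, had differences of -4.27 (Scgb2b15), -4.06 (Scgb2b2) and -3.69 (Scgb2b20), and as close relatives their probes may share targets. Syp, the synaptic vesicle protein synaptophysin, had a signal of 1642 in WT and 443 in KO and a difference of -4.14 (-3.98), whereas in spinal cord it differed by -0.15. Rprl2, an RNA related to that of RNase P, had a signal of 288 in WT and 87.1 in KO and a difference of -3.98. The last 3 were Mdh1b, a malate dehydrogenase relative, at -3.78, the zinc finger gene Zfp790 at -3.72 and Fam13c at -3.71. With normexp Mdh1b was at -1.89, and the 10 besides it and Retnlb lay between -3.60 and -2.71. In 11 of the 12 decreases, too, a single probe was well above background on both arrays.

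Upstream sequences are shown for 3 genes that were higher, because they were the largest increases with an entry in the promoter table, and for 2 red cell genes that were lower, as the contrast. They are the 250 bases before the annotated start from RefSeq (GRCm38.p6), 5′ to 3′ in the direction of the gene, and capitals mark TATAAA, the core of a TATA box, or AGATAA, a site of the type GATA factors bind, on either strand (TTTATA and TTATCT on the other).
Gkn2 (chr6:87373115-87373364, plus strand): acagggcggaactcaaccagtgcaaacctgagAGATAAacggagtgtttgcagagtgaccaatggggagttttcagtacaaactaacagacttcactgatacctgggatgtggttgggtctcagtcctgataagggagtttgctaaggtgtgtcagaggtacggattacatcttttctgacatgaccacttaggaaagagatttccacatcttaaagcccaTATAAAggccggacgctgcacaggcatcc
Anxa10 (chr8:62123194-62123443, minus strand): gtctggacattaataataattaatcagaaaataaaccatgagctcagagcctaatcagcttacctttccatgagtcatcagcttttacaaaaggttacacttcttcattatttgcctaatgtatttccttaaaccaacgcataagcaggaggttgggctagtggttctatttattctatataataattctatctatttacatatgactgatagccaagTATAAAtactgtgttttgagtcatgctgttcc
Mucl3 (chr17:35643696-35643945, minus strand): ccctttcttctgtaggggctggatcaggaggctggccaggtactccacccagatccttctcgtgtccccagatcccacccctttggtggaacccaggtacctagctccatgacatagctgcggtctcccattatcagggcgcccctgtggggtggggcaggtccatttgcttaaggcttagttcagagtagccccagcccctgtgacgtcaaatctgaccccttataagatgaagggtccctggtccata
Hbb-bt (chr7:103813924-103814173, minus strand): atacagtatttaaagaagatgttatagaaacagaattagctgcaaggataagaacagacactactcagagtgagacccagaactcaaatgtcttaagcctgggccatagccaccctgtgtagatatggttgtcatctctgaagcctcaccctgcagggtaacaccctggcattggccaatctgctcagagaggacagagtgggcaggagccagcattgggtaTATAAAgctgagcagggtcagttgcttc
Alas2 (chrX:150547167-150547416, plus strand): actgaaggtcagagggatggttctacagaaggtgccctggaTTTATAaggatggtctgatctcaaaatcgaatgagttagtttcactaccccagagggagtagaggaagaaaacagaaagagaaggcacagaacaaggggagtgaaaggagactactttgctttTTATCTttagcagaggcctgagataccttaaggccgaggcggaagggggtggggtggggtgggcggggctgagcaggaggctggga
TATAAA stood 29 bases before the start in Gkn2, 32 in Anxa10 and 28 in Hbb-bt, and Alas2 had its match on the other strand at 209 bases. AGATAA was found in Gkn2, 218 bases before the start, and on the other strand in Alas2, at 86 bases, and Mucl3 held neither. Among 32851 windows of this length in the table, 12.4% held TATAAA and 9.99% held AGATAA on either strand. Of the 12 largest increases, 9 had an entry and 3 of these held TATAAA (Gkn2, Anxa10 and Ppy), and of the 12 largest decreases 10 had an entry and 5 held it (Alas2, Mdh1b and the 3 secretoglobins). A match is a run of letters and not evidence of binding.

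For some genes the brightest probe was well above background on 1 array only, and for these the difference is a bound. On the KO array only were 4548 genes, 44 of which had another probe that was well above background on both arrays, and for 3384 of them no fold could be given because the bound was under 1. Meg3, a maternally expressed long non-coding RNA, was at least 6.45-fold higher in KO, with a KO signal of 135. Fer1l4 was at least 5.63-fold higher, Sde2, a factor of DNA replication stress, at least 5.25-fold, and Parp2, a poly-ADP-ribose polymerase of DNA repair, at least 4.41-fold. St8sia6, a sialyltransferase, was at least 4.39-fold higher. The brightest probe of Zdhhc17, a palmitoyltransferase, gave at least 4.37-fold, but its 2 probes detected on both arrays were both lower in KO and the mean over its probes was 0.01, so no direction is given for this gene. With normexp background correction none of these 6 kept a bound of 2-fold. On the WT array only were 71 genes. Ppbp, a chemokine of platelets, was at least 14.1-fold lower in KO, with a WT signal of 12.9. Spata3 was at least 15.8-fold lower, the olfactory receptor gene Olfr94 at least 15.7-fold, Lsmem1 at least 15.0-fold, Palm3 at least 14.8-fold and the homeobox gene Hoxc12 at least 11.3-fold. The WT signals of these 6 genes were low, between 10.3 and 16.2. With normexp background correction their differences were smaller, between -1.86 and -1.68.

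Markers of the stomach, which adjoins the duodenum, were higher in KO. The gastric surface and gland list had 17 of 18 genes well above background on at least 1 array, and 8 were at least 2-fold higher and 0 lower, where 7.2% and 11.9% of all genes were. Its median difference was 1.70 (1.98), with a range of 1.08 to 1.98 over 7 scalings, against -0.05 (0.07) for all genes with a value. The list took 0.331% of the summed signal of the WT array and 0.538% of the KO array. Most of this was Tff2, which is also on the Brunner gland list and has no settled direction. Its signal was 77412 in WT and 228260 in KO, where the list summed to 87793 and 373129. Besides the 5 genes above, Ctse, the aspartic protease cathepsin E, had a signal of 62.2 in WT and 799 in KO and a difference of 1.43, and Vsig1, a junction protein of gastric epithelium, was at least 3.93-fold higher. Gkn3, a gastrokine, had a difference of 1.01 (1.94). The genes that define the acid and pepsinogen glands were at or near background. Atp4b, a subunit of the proton pump, did not stand well above background on either array. Atp4a, Cblif (intrinsic factor), Pga5, Gkn1 and Chia1 were well above background on the KO array only and had no fold, and with these 5 set at 0 the list median was 0.43. Pgc, a pepsinogen that Brunner glands also make, had a difference of -0.33. Ptf1a, which is on the list although it is a pancreatic regulator, had 0.43.

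The Brunner gland list depended on the scaling. Of its 9 detected genes, 2 were at least 2-fold higher under 75th percentile scaling and 4 after quantile normalization, and the median was -0.21 (0.87). Tff2, the trefoil peptide of Brunner and gastric neck cells, had a signal of 77412 in WT and 228260.0 in KO and a difference of -0.69 (1.08). Dmbt1, a mucosal scavenger receptor, had a signal of 33620.1 in WT and 150500.0 in KO and a difference of -0.08 (1.38). Both are in the bright range where the scalings part, and no direction is given for them. Egf, the epidermal growth factor, was at 1.72 (1.73), but its signal was low, at 8.66 in WT and 135 in KO, and normexp background correction left a difference of 0.02.

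Pancreatic acinar genes were strongly detected on both arrays. All 32 on the array were well above background on both, and they took 9.21% of the summed signal of the WT array and 6.16% of the KO array. The raw signals of the brightest enzymes were nearly equal in spite of the difference in array brightness. Cela3b, an elastase, had 214744 in WT and 244876 in KO, Ctrb1, chymotrypsinogen, had 190024 in WT and 200070.0 in KO, Try5, a trypsin, had 164558 in WT and 172957 in KO, and Clps, colipase, had 135379 in WT and 146838 in KO. The list median was -1.08 under 75th percentile scaling, with 17 genes at least 2-fold lower and 4 higher, and 0.39 after quantile normalization, with 0 lower and 10 higher. No direction is given for the bright enzymes. Other acinar genes were higher under both scalings. Rnase1, pancreatic ribonuclease, had a signal of 2970.4 in WT and 40741 in KO and a difference of 1.53 (2.12). Gp2, the zymogen granule membrane protein, had a signal of 10074 in WT and 110404 in KO and a difference of 1.21 (2.20). The acinar transcription factors Bhlha15 (Mist1) and Rbpjl had differences of 1.07 (1.30) and 1.00 (1.11), and Ptf1a was at 0.43 (0.50).

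Islet hormones other than somatostatin were higher in KO, while the islet list as a whole was not settled. Ins2, an insulin gene, had a signal of 856 in WT and 10676 in KO and a difference of 1.39 (1.73). Ins1, the other one, had a signal of 736 in WT and 9385 in KO and a difference of 1.43 (1.74). Iapp, amylin, had a signal of 46.4 in WT and 857 in KO and a difference of 1.96, and Gcg, which encodes glucagon and in the gut GLP-1, had 1.17. With Ppy, 5 of the 11 detected islet genes were at least 2-fold higher, and the median was 1.17, with a range of 0.68 to 1.19 over 7 scalings. The median leaves out 2 genes with no fold, and with these set at 0 it was 0.00. Sst, somatostatin, which gut D cells also make, had a difference of -0.70. The islet regulators were not higher, with -0.64 for Pdx1, which the duodenum also expresses, -0.79 for Mafa and -1.84 for Nkx6-1. The list took 0.0151% of the summed signal of the WT array and 0.0409% of the KO array. The part of attached stomach or pancreas in any of these differences was not tested.

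**Figure D4:**
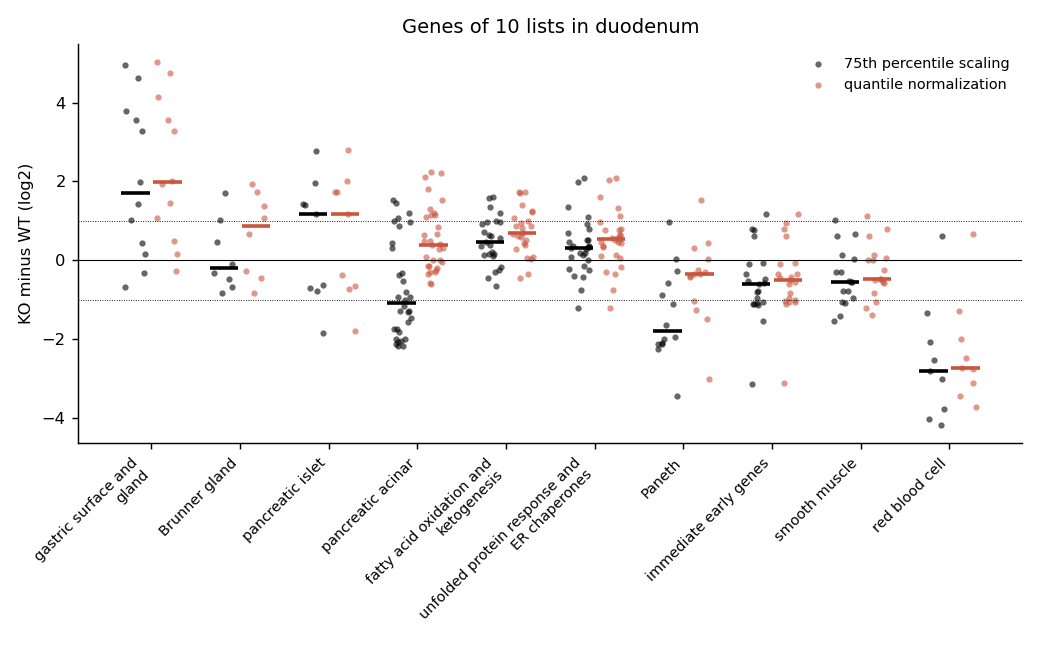
Each point is 1 gene of 10 lists, with its KO minus WT difference in duodenum (log2) under 75th percentile scaling (black) and quantile normalization (red), bars at list medians and dotted lines at 2-fold. The medians of the gastric surface and islet lists lie above 0 and that of the red blood cell list below it under both scalings, whereas acinar genes move from a median of -1.08 to 0.39.

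Most genes of the absorptive epithelium were within 2-fold, and the medians of their lists moved across 0 with the scaling. All 15 villus enterocyte markers were well above background on both, which the tissue label calls for, with a median difference of -0.10 (0.41). Of them, 1 was at least 2-fold higher and 3 lower, and after quantile normalization 2 were higher and 1 lower. Fabp2, the intestinal fatty acid binding protein, had a signal of 91061 in WT and 122969 in KO and a difference of -1.81 (-0.21). Apoa1, an apolipoprotein of chylomicrons and HDL, had a difference of -1.56 (-0.51), and Apob, the structural protein of chylomicrons, had -1.56 (-1.12), although its 2 probes pointed both ways with a mean of -0.52. Of 26 brush border genes, 0 were at least 2-fold higher and 1 was lower, with a median of -0.05 (0.39). Alpi, intestinal alkaline phosphatase, had a difference of -0.10, Sis, sucrase-isomaltase, -0.26 and Lct, lactase, 0.33. The exception was Espn, the actin bundler espin, with a signal of 996 in WT and 1832 in KO and a difference of -1.37 (-1.14). Among 19 nutrient carriers, 2 were at least 2-fold higher and 0 lower. They were Slc5a1, the sodium glucose cotransporter SGLT1, with levels of 1.88 in WT and 3.03 in KO, a difference of 1.15 (1.31), and Slc3a1, a subunit of the cystine and basic amino acid carrier, at 1.03 (1.11). The fructose carrier Slc2a5 was at 0.01 and the peptide carrier Slc15a1 at 0.24. The fat absorption list had a median of -0.17 (0.18) and the iron list -0.17 (0.18), so neither had a settled direction.

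Single genes of absorption and of the epithelial barrier stood further from 0 than their lists. Vdr, the vitamin D receptor, had levels of 3.29 in WT and 4.35 in KO, a difference of 1.06 (1.33). S100g, the calcium carrier calbindin-D9k that vitamin D induces, had a difference of -1.01 (-0.50), and Trpv6, the calcium channel it also induces, had 0.62 (0.61). In vitamin A handling, Rbp2, the retinol binding protein of enterocytes, had a difference of -1.53 (-1.09), while Retsat, retinol saturase, had 1.03 (1.36). Among 26 regulators of gut identity, 1 was at least 2-fold higher and 2 were lower. The higher one was Vdr, and the lower ones were Gata5, with a signal of 669 in WT and 505 in KO and a difference of -2.65 (-2.52), and Maf at -1.04 (-0.86). Gata4 and Gata6, relatives of Gata5, had 0.13 and 0.45, and the enterocyte regulator Hnf4a had 0.19. Junction genes lay on both sides: Cldn2, a cation-permeable claudin, was at 1.40 (0.37 as the mean over 2 probes that pointed both ways), Cldn8 at 1.61 (-0.27 with normexp background correction) and Ocln, occludin, at 1.63, whereas Cldn4 was at -1.85 and Cldn23 at -1.91.

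In the secretory epithelium, some goblet and Paneth cell genes were lower in KO. Of 14 goblet genes, 5 were at least 2-fold lower under 75th percentile scaling and 4 after quantile normalization. Those 4 were Retnlb, Ang4, an antimicrobial ribonuclease shared with Paneth cells, Spink4, a protease inhibitor, and Itln1, the lectin intelectin 1. Ang4 had a signal of 8771 in WT and 3792 in KO and a difference of -3.46 (-3.02). Spink4 had a signal of 10276 in WT and 8629 in KO and a difference of -2.50 (-1.98), and Itln1 had 44311 in WT and 48944 in KO and -2.10 (-1.04). The core goblet genes were within 2-fold, with differences of -0.30 for Muc2, the main gut mucin, -0.16 for Clca1 and -0.43 for the regulator Spdef. The Paneth list had a median of -1.80 (-0.36), and 9 and 4 of its 14 genes were at least 2-fold lower under the 2 scalings. Lyz1, lysozyme, had a signal of 18379.8 in WT and 40594 in KO and a difference of -1.10 (-0.29). The alpha defensins Defa5 and Defa26 had differences of -1.99 (-1.28) and -1.94 (-1.49). The brighter defensins Defa23, Defa3 and Defa29 had -2.26 (-0.43), -2.14 (-0.40) and -1.66 (-0.24), so they did not stay past 2-fold after quantile normalization. Defensin genes are so alike that their probes may share targets. The Paneth list also holds the pancreatic genes Clps and Pnliprp2. Its genes took 3.59% of the summed signal of the WT array and 1.75% of the KO array.

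Of 15 tuft cell genes detected, 10 were below 0, 1 was above it and 4 had no fold. The median was -0.66 under both scalings, and -0.23 with the 4 set at 0. At least 2-fold lower were Gfi1b, a transcription factor, at -2.03, Rgs13, a regulator of G protein signalling, at -1.81, and Gng13, a G protein subunit of taste signalling, at -1.50. Dclk1, the usual tuft marker, had a difference of -0.51, and Trpm5, the taste channel, had -0.83. The enteroendocrine list had a median of 0.38 (0.45), or 0.23 with its genes without a fold at 0. Besides Gcg, the genes at least 2-fold higher were Chgb, chromogranin B, at 1.33, and Scg2, secretogranin II, at 1.16, both of which islets and neurons also express. The duodenal hormones were within 2-fold, with differences of -0.39 for Cck, 0.03 for Sct (secretin) and 0.67 for Gip, and Tph1, which makes serotonin in enterochromaffin cells, was at 0.96. Crypt stem cell genes had a median of 0.12 and none past 2-fold, with Lgr5 at 0.28.

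Genes of fatty acid oxidation and ketogenesis, which fasting is known to raise, were mostly above 0, although both mice had been fasted. Of 25 genes with a value, 20 were above 0, as were 47.7% of all genes with a value, 5 were at least 2-fold higher and 0 lower. The median was 0.47 (0.69), and it ran from 0.47 to 0.91 over 7 scalings. Cyp4a31, a fatty acid omega-hydroxylase and PPAR alpha target, had a signal of 144 in WT and 2063 in KO and a difference of 1.60 (1.72). Its close relative Cyp4a10 had a signal of 158 in WT and 2233 in KO and a difference of 1.58 (1.70). Ppargc1a, the coactivator PGC-1 alpha, was at 1.21 but at 0.56 as the mean over 2 probes that pointed both ways, and Acot2, an acyl-CoA thioesterase, was at least 2.56-fold higher. Slc25a20, the carnitine carrier of mitochondria, was at 1.00. Cpt1a, which brings fatty acids into mitochondria, was at 0.72, Pdk4, which holds back glucose oxidation, at 0.65 and Ppara itself at -0.16. Pck1, which feeds gluconeogenesis, had a signal of 2849 in WT and 30906 in KO and a difference of 1.19 (1.71). Cholesterol synthesis and lipogenesis genes had a median of -0.21 (-0.08), with 18 of 27 below 0 and 15 after quantile normalization, where 52.3% and 46.2% of all genes were.

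Genes of protein folding in the endoplasmic reticulum (ER) were mostly above 0, and immediate early genes mostly below it. Of 28 unfolded protein response and ER chaperone genes, 21 were above 0, 4 were at least 2-fold higher and 1 was lower, with a median of 0.32 (0.53). Pdia6, a protein disulfide isomerase, had a difference of 1.36 (1.60), and Sel1l, a part of ER-associated degradation, 1.98 (2.03). Atf6, a sensor of the response, was at 2.10 but at -0.02 with normexp background correction, and the chaperone Hyou1 was at -1.21. Immediate early genes, which a stimulus or handling switches on within minutes, had a median of -0.60, with a range of -0.60 to -0.41 over 7 scalings, and 7 of 22 were at least 2-fold lower. Fosb had a signal of 147 in WT and 78.4 in KO and a difference of -3.15 (-3.11). Jun and Junb, its partners in AP-1, were at -1.14 (-0.84) and -1.10 (-1.07), and Fos was at -0.52. Of 21 with a value 4 were above 0, and the one at least 2-fold higher was Nr4a2, an orphan nuclear receptor, at 1.17. Clock genes had a median of -0.37, with Npas2 at -2.70 (-1.77 with normexp background correction) and Arntl, which encodes its partner, at 1.32 (0.10 with that correction).

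Most other programmes were near 0 or changed sign with the scaling. Ribosomal protein genes had a median of -0.90 with 14 of 38 at least 2-fold lower under 75th percentile scaling, but a median of 0.11 with 0 lower after quantile normalization. Subunits of the mitochondrial respiratory complexes had a median of -0.33 (0.12). Both groups are bright. Heat shock genes had -0.02 (0.25) and cell cycle genes 0.11 (0.13). Xenobiotic metabolism genes had 0.00 (0.25), although Cyp2c55, a cytochrome P450, was at 1.33 (0.19 with normexp background correction) and the sulfotransferase Sult1d1 at -1.47. Genes of p53 and apoptosis had a median of 0.33 (0.49, and 0.06 with normexp), with 1 at least 2-fold higher (Casp8, at 1.47) and 5 lower, among them Trp53 itself at -1.15. The complement and acute phase list had a median of -0.16 (-0.09), with Nos2, the inducible nitric oxide synthase, at -1.85 and Saa3 at -1.48, while Il6, Cxcl1 and Cxcl2 did not stand well above background on either array.

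The list of muscle layer genes had a median below 0 whose size moved with the processing. Of 17 smooth muscle genes with a value, 12 were below 0, 4 were at least 2-fold lower and 1 was higher, with a median of -0.54 (-0.48). After quantile normalization 10 were below 0, where 46.2% of all genes were, and with normexp the median was -0.16. Actg2, the actin of enteric muscle, had a signal of 2829 in WT and 4593 in KO and a difference of -1.55 (-1.22). Des, the intermediate filament desmin, had a signal of 232 in WT and 411 in KO and a difference of -1.42 (-1.38). Tpm2, a tropomyosin, was at -1.06 (-0.82) and the small heat shock protein Hspb7 at -1.10. The brightest probe of Tpm1, another tropomyosin, was at 1.02 (1.11), but 3 of its 5 probes were lower and their mean was 0.06. Myh11, smooth muscle myosin, was at 0.14. Genes of the interstitial cells of Cajal, the pacemakers of the gut, were all within 2-fold, with Ano1, their chloride channel, at 0.84 and Kit, their growth factor receptor, at 0.63.

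Neural genes had no common direction. Of 30 enteric neuron genes on the array, 20 were well above background on both arrays, 2 were at least 2-fold higher and 2 lower, and the median was -0.18 (-0.13), or 0.00 with genes without a fold at 0. The lower genes were Npy, neuropeptide Y, with a signal of 47.9 in WT and 78.2 in KO and a difference of -1.54, and Slc18a3, the vesicular acetylcholine carrier, at -1.30. The higher ones were Scg2 and Syt1, a synaptotagmin of synapses, at least 2.05-fold. The general neuronal genes Snap25, Uchl1 (PGP9.5) and Tubb3 had differences of -0.78, -0.73 and -0.57. Vip and Tac1, which encode the peptides VIP and substance P, had 0.06 and 0.13, and Ret, the receptor that enteric neurons need in development, had 0.34. Nos1 did not stand well above background on either array, and Chat did so on the KO array only.

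Among glial genes, some were lower and some higher. Erbb3, the neuregulin receptor of Schwann cells and also of epithelium, had a signal of 153 in WT and 116 in KO and a difference of -2.65. Pmp22, a myelin protein that other cells make too, had a signal of 577 in WT and 475 in KO and a difference of -2.53. S100b, a calcium binding protein of glia, had a signal of 4.77 in WT and 74.5 in KO and a difference of 1.72, which turned to -0.40 with normexp background correction. Sox10, the regulator of glia and their progenitors, was at -0.62. Gfap did not stand well above background on either array.

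Of the genes that the study followed by qPCR, Nckipsd is given above, and most of the others were too dim to compare in whole duodenum. Going by the scanner files' gene names, Drd5, Npy4r, Noto, Tbx18 and Pax7 did not stand well above background on either array, and Cckbr did so on the KO array only and had no fold. For Drd5 and Cckbr the deposited log2 values and the scanner files differed in the series. Hrh4, a histamine receptor, had a signal of 13.1 in WT and 41.5 in KO and a difference of -0.59. Tbx1, a T-box regulator, had a signal of 22.8 in WT and 61.6 in KO and a difference of -0.81. Mycn, the transcription factor N-myc, had a signal of 9.81 in WT and 63.9 in KO and a difference of 0.46, which became -0.80 with normexp background correction. Actb, the actin often used for reference, had a difference of -1.66 (0.04).

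Connective tissue and vessel genes differed little as groups. The fibroblast list had a median of 0.07 (0.15) and the matrix list -0.20 (-0.10). Bmp4, a signal of the crypt niche, had a difference of 1.54, but the mean over its probes was -0.11. The blood endothelium list had a median of -0.30 (-0.30). Kdr, the VEGF receptor 2, had a signal of 1047 in WT and 929 in KO and a difference of -2.42 (-2.24), although its 2 probes pointed both ways with a mean of -1.20, while Pecam1 and Cdh5, general endothelial genes, had 0.20 and 0.61. In the Wnt, Notch, BMP and Hedgehog list, Notum, a secreted inhibitor of Wnt, had a signal of 565 in WT and 521 in KO and a difference of -2.36 (-2.25). Ptch1, the Hedgehog receptor, was at -1.47, and Id1, a BMP target, at -1.25 (-0.96).

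Red blood cell genes were lower in KO, relative to the other genes, under each of 7 scalings. Scaling on the spiked-in controls, which is not among them, raised the median gene by 3.01, more than the size of this list's median. Of 12 genes on the array, 9 were well above background on both arrays, and 8 of these were at least 2-fold lower. The median was -2.81 (-2.74), with a range of -2.81 to -2.07 over the scalings. The list took 0.395% of the summed signal of the WT array and 0.0427% of the KO array. Hbb-bt, a beta globin, had a signal of 2459 in WT and 1446 in KO and a difference of -3.01, and its near-identical relatives Hbb-b2 and Hbb-bs had -2.81 and -2.53. Slc4a1, the anion exchanger of the red cell membrane, had a difference of -2.09 at a signal near background on both arrays. The exception was Bpgm, at 0.62, and the membrane gene Epb42 did not stand well above background on either array. In spinal cord the same list had a median of 1.19, higher in KO, over its genes with a value there. The part of blood held in the tissue in these differences was not tested.

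Genes of granulocytes and mast cells included lower ones too. Of 14 detected, 5 were at least 2-fold lower and 0 higher, with a median of -0.34 (-0.29). Mcpt4 and Mcpt1, mast cell proteases, had differences of -1.90 and -1.67, S100a9, a calcium binding protein of neutrophils, -1.41, and Elane, neutrophil elastase, -1.61. S100a8 and Mpo did not stand well above background on either array.

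Lymphocyte and macrophage lists were near 0. The T cell and intraepithelial lymphocyte list had a median of 0.02, but 4 of its 24 genes were at least 2-fold higher and 0 lower. These were Cd8a, the coreceptor of cytotoxic T cells, with a signal of 16.1 in WT and 181 in KO and a difference of 1.24 (0.42 as the mean over 2 probes that pointed both ways), Gzmb, granzyme B, with 38.0 in WT and 426 in KO and 1.24, Cd96 at 1.15 and Fasl at 1.27. With normexp background correction none of the 4 stayed past 2-fold, with 0.08 for Cd8a, 0.78 for Gzmb, -0.03 for Cd96 and -0.53 for Fasl. Cd3e, of the T cell receptor complex, was at -0.51 and Gzma, granzyme A, at 0.30. The macrophage and dendritic cell list had a median of -0.24 (-0.10) and the B and plasma cell list -0.17 (-0.14). Jchain, the joining chain of secreted IgA, had a signal of 11616 in WT and 18828 in KO and a difference of -1.55 (-0.97).

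Interferon and antigen presentation genes had a median of 0.26 (0.34), with 6 of 36 at least 2-fold higher and 2 lower. Nlrc5, which drives MHC class I genes, had a difference of 1.71, and Irgm1 and Igtp, immunity-related GTPases that interferon gamma induces, had 1.58 and 1.52. Cxcl10, an interferon-induced chemokine, was at 1.32. With normexp background correction the differences of these 4 were 0.20, -0.14, 1.22 and -0.59, so the higher direction did not hold for Irgm1 and Cxcl10. The lower ones were Gbp6, a guanylate binding protein, at -2.15 and Zbp1, a nucleic acid sensor, at -1.37. H2-K1, an MHC class I heavy chain, was at 0.44 (1.20), with a mean of 0.03 over 2 probes that pointed both ways, and its partner B2m at -0.13 (0.34).

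Of the markers of other tissues that can be taken with gut, those of skeletal muscle and liver were dim, with median signals of 11.2 and 7.52 in WT and 30.2 and 19.1 in KO. The skeletal muscle list had 11 of 20 genes detected, with a median of -1.04 (-1.01), and the fast myosin genes Myh1, Myh2 and Myh4 did not stand well above background on either array. The liver list had a median of 0.41 with a range of -0.24 to 0.43, or 0.00 with its genes without a fold at 0, and Alb, albumin, was detected on the KO array only, with no fold. The adipocyte list was brighter, with median signals of 55.3 in WT and 487 in KO, and had a median difference of 0.40, with Lpl, lipoprotein lipase, at 1.60 and Adipoq, adiponectin, detected on the KO array only, with no fold. Across the 53 lists, the gastric surface and red blood cell lists were the ones whose median stayed past 2-fold under all 7 scalings. For the gastric list this holds only with its 5 genes without a fold left out. The 7 do not include scaling on the spiked-in controls, which raised the median gene by 3.01, where the red blood cell median was -2.81. Medians on both sides of 0 were found for 17 lists.

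**Figure D5:**
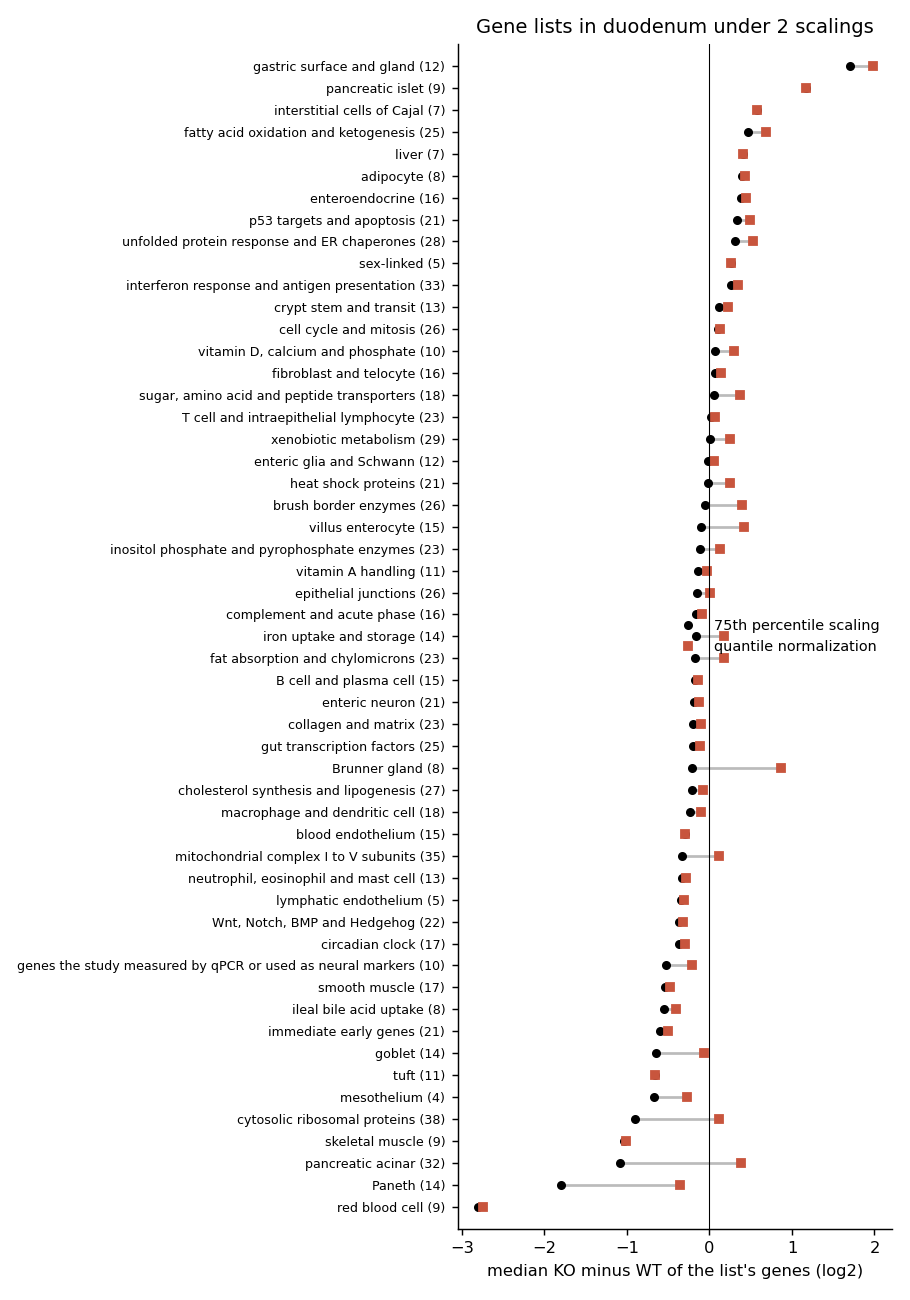
Median KO minus WT difference (log2) of the genes of each of 53 lists in duodenum, under 75th percentile scaling (black) and quantile normalization (red), with the number of genes that had a value in parentheses. The red blood cell list lies at -2.81 and the gastric surface list at 1.70, whereas the acinar, Paneth, ribosomal and Brunner gland lists move most between the scalings.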

How the data were processed

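Whole duodenum from 1 WT and 1 KO mouse was measured on 1-colour microarrays of 1 slide and 1 scan. According to the labels and the study's methods, RNA of RIN above 7.0 was labelled with Cy3 by linear amplification, and scans were read with Feature Extraction 11.5.1.1. The scanner output that the authors deposited gives each spot's intensity with the background already subtracted and spatial trends removed by the scanner software. The authors also deposited a table of log2 values, which was rebuilt here as log2 of the signal (at least 1) after quantile normalization over 4 arrays. The median absolute deviation was 0.0019 over 20257 probes well above background on both duodenum arrays. Of these, 2 (Cela3a and Elavl4) deviated by over 0.1 and were left out of the deposited values. Probes with larger deviations on any of the 4 arrays were left out too. Groups came from sample titles.

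Control spots were dropped, spots of a probe were averaged leaving out outliers (105 in WT, 89 in KO), and log2 signal minus the 75th percentile of each array was taken. A gene was represented by its brightest probe over the 4 arrays. Of 26391 probes with an NM accession, 25862 were named through RefSeq (GRCm38.p6), and other genes kept the files' names. Where only 1 array was well above background, the dim array's value was raised, where lower, to the lowest one well above background on that array, and no fold was given if the bound was under 1. The technical SD came from the 50 probes nearest in brightness among 399 printed 10 times. With 1 array per group there was no test, and the genotype and the mouse cannot be told apart. The number of arrays limits the precision. Calculations used limma 3.58.1 in R 4.3.3 and Python 3.11.15, and the difference script was tested on simulated data. The 12 largest changes each way and the 6 largest bounds were named by rule. The rule also picked the 4 brightest genes and the largest change each way in each list, but only some of these are given above. Other list members were chosen after their values were seen, and so were Hbb-bt and Alas2 for the promoters. The members and the 53 lists (996 genes on the array) were chosen with earlier results of these data known. Alternatives were other backgrounds, scalings, filters, probe rules and fold thresholds. Values of some single list members are not reported here.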

Additional observations from a re-analysis of the deposited data

Results flagged for a closer look

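Spinal cord of the same genotypes, 1 array each, gave a second KO minus WT difference for each gene, and 4 of the genes named as the largest changes or bounds, with 2 gene lists, were at least 2-fold apart from 0 in opposite directions in the 2 tissues. These differences between tissues were not tested, since each genotype had 1 array per tissue. Tff1, the gastric trefoil peptide, had a difference of 3.79 in duodenum and a bound of -1.96 in spinal cord, where it was well above background on the WT array only, so that the 2 were at least 5.75 apart. Syt10, a synaptotagmin, had 2.99 and -2.31, 5.30 apart. Alas2, of heme synthesis, had -3.77 and 1.21, so that duodenum minus spinal cord was -4.99. Ppbp, of platelets, had a bound of -3.82 in duodenum and 1.67 in spinal cord, a gap of -5.48 that is itself a bound. The red blood cell list had a median of -2.81 in duodenum and 1.19 in spinal cord, a gap of -4.00. The skeletal muscle list had -1.04 and 3.75, a gap of -4.79. Each list median was over the genes with a value in that tissue, so the 2 medians of a list can rest on different genes. Of 20 skeletal muscle genes on the array, 9 had a value in duodenum, and those detected there were dim, with a median WT signal of 11.2.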

How the results depend on the processing

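No paired analysis was possible because a genotype had just 1 array in a tissue, and no array could be left out for the same reason. Against 1543 genes higher and 2552 lower by 2-fold, normexp background correction gave 843 higher, scaling on the spiked-in controls 20613 higher and 18 lower (it moved the median gene by 3.01), no filter on dim probes 2462 and 12540, and a 1.5-fold threshold 3647 and 4835; the cause was not tested. Quantile normalization moved the median gene by 0.13. Differences past 2-fold changed sign under quantile normalization of the 2 duodenum arrays, of the 4 arrays and in the deposited table, in that order, for Actb (0.041, 0.027, 0.076), Cox4i1 (0.030, 0.042, 0.058), Cox6a1 (0.18, 0.16, 0.21), Fth1 (0.25, 0.20, 0.24), Rplp2 (0.20, 0.18, 0.22), Rps14 (0.16, 0.13, 0.18), Zg16 (0.27, 0.22, 0.22) and the acinar list median (0.39, 0.34, 0.38), all of them lower under 75th percentile scaling. With normexp background correction, higher genes changed sign for Atf6 (-0.016), Cd96 (-0.031), Cldn8 (-0.27), Clec10a (-0.62), Cxcl10 (-0.59), Cyp2e1 (-0.24), Fasl (-0.53), Inpp1 (-0.51), Irgm1 (-0.14), Lrat (-0.16), Nusap1 (-0.66), Oas2 (-0.31) and S100b (-0.40), and with the mean of all probes for Bmp4 (-0.11). Of the other values over all alternatives, 1266 for genes and 233 for lists moved by more than the technical SD without such a change of sign, and 1689 and 313 did not. Those that did not include all 378 gene and 62 list values under median centring, a constant shift of 0.02. They also include all 358 and 62 under the spiked-in controls, which were compared relative to the median gene. Neither setting could move a value by that measure, so these are no sign of stability. On the WT array 51.6% of probes were well above background, which limits what can be compared.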

Other observations

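The gene families here were chosen after their values were seen, and their counts are descriptions. Replication-dependent histone genes, whose mRNAs end in a stem-loop in place of a poly(A) tail, were lower in KO. Of 40 on the array, 39 were detected in duodenum, 29 were at least 2-fold lower and 0 higher, and the median difference was -2.83 (-2.26 after quantile normalization). H2ac11 had a signal of 47083 in WT and 24744 in KO and a difference of -3.17, and H4c12 had 30952 in WT and 16764 in KO and -3.13. The exception named here is H2bc4, at 0.34. In spinal cord the family had a median of 0.34. Medians in each tissue here are over the genes with a value in that tissue. Short non-coding RNAs, many of which also lack a poly(A) tail, showed the same direction: 11 of 13 detected were at least 2-fold lower, with a median of -2.90 in duodenum and 0.01 in spinal cord. Rmrp, the RNA of RNase MRP, had -3.21, Rpph1, that of RNase P, -2.90, and Terc, the telomerase RNA, -2.76. Cell cycle genes, by comparison, had a median of 0.11. The WT duodenum array was also the dimmest of the 4, with a 75th percentile of signal of 68.0, and the part of this in the family values was not tested.

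Kallikreins, serine proteases of glands, were higher in KO. Of 18 detected, 10 were at least 2-fold higher and 1 was lower, with a median of 1.1 (1.45 after quantile normalization). Klk1 had a signal of 7475 in WT and 88683 in KO and a difference of 1.32. The mouse family is large and near-identical, so its probes may share targets. Of 142 olfactory and vomeronasal receptor genes detected of 1325 on the array, 36 were at least 2-fold lower, 1 was higher, and 83 had no fold. They were dim, with median signals of 3.15 in WT and 9.42 in KO. Of all genes, 11.9% were at least 2-fold lower and 7.2% higher, and in the dimmest brightness bin 588 of 1682 were lower and 37 higher. Components of the early secretory pathway (COPII coats, the signal recognition particle and its receptor complexes) had a median of 0.46, with 7 of 48 at least 2-fold higher and 2 lower. Carboxylesterases had a median of 0.60, or 0.26 with genes without a fold at 0, and Gimap GTPases of lymphocytes 0.60.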
